A study of Saccharomyces cerevisiae with 9 samples.

Results

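The 35 genes described here encode the enzymes, subunits and regulators of sphingolipid synthesis, breakdown and control in the budding yeast Saccharomyces cerevisiae. They were chosen by gene symbol for their known roles, and all 35 were found among the 7122 genes of the deposited table. RNA levels were measured by sequencing of polyadenylated RNA in 9 libraries that fall into 3 groups of 3. The first group, ect1Δ pct1Δ, lacks ECT1 and PCT1, whose enzymes produce CDP-ethanolamine from phosphoethanolamine and CDP-choline from phosphocholine. The second, cpt1Δ ept1Δ, lacks CPT1 and EPT1, whose products join these activated head groups to diacylglycerol. The last group is the wild type (WT). All strains were of the prototrophic CEN.P.K background and carried no other labelled allele, and all were grown in minimal SD medium with 2% glucose to log phase, with no agent added. The 4 deleted genes encode enzymes of these steps in the CDP-ethanolamine and CDP-choline (Kennedy) branches of phospholipid synthesis, and no strain lacks all 4. The labels do not say whether libraries of a group came from separate cultures or how many isolates of a strain were used, so the p-values reflect only how far these libraries vary, which may be technical spread.

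Sphingolipid synthesis starts in the endoplasmic reticulum, where serine palmitoyltransferase joins serine to palmitoyl-CoA. The long-chain base that results is coupled to a very long-chain fatty acid to give ceramide, which receives inositol-containing head groups in the Golgi. The pathway meets the Kennedy branches at both ends: inositol phosphorylceramide synthase releases diacylglycerol, the substrate of the CPT1 and EPT1 products, and the lyase Dpl1 releases phosphoethanolamine, the substrate of the ECT1 product.

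YPC1, which encodes a ceramidase that acts on phytoceramide, was the member whose RNA passed the threshold used below. It did so in ect1Δ pct1Δ over WT and in no other comparison, and the call was lost in 13 of 15 alternative settings. Its relative YDC1, which encodes a ceramidase that acts on dihydroceramide, had the next smallest p in ect1Δ pct1Δ over WT but was not called. Their upstream sequences are shown first for this reason. Each is the stretch from 400 to 101 bases before the start codon, 5′ to 3′ on the coding strand, from the RefSeq R64 sequence of the reference strain S288C. The YPC1 stretch is chrII:595715-596014 and the YDC1 stretch is chrXVI:383055-383354, both on the plus strand. Capitals mark matches to the stress response element AGGGG or its reverse complement CCCCT, which did not overlap a match to another motif searched.
YPC1: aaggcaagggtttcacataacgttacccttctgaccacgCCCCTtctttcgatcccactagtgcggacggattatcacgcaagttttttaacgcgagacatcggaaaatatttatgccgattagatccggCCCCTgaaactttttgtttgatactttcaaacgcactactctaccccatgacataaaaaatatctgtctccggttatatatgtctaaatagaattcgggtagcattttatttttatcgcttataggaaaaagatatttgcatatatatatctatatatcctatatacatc
YDC1: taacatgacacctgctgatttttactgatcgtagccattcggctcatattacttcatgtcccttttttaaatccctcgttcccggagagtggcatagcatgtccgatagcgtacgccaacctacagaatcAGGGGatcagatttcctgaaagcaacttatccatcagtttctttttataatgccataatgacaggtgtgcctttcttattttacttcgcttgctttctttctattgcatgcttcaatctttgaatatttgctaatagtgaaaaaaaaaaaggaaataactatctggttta
In the 500 bases before its start codon YPC1 had 3 matches to this element, at 361 to 357, 270 to 266 and 83 to 79 bases before the start. A count of 3 or more, a cut equal to the YPC1 count itself, was found in 1.84% of 5983 yeast upstream windows of that length. Of the 35 members 1 reached it, which was YPC1. A count of 2 or more was found in 8.14% of the windows and in 3 members, YPC1, LCB4 and SLM1. YDC1 had 1 match, at 270 to 266 bases before the start. At least 1 match on either strand was present in 14 of the 35 members (40.0%) and in 34.1% of all windows. The inositol-sensitive core CATGTG, searched on both strands as well, was present in 4 members (PHS1, LIP1, LCB3 and DPL1) and in 13.2% of all windows. A match is a string of letters and does not show that a protein binds there.

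The deleted genes were near 0 in their own strains. ECT1 had 0 to 0.32 FPKM (counted fragments scaled by gene length and library total) and PCT1 had 0.69 to 0.74 FPKM in the ect1Δ pct1Δ libraries, against 106 to 116 and 103 to 111 FPKM in WT. CPT1 had 0.15 to 0.51 FPKM and EPT1 had 0 to 0.41 FPKM in the cpt1Δ ept1Δ libraries, against 189.8 to 201 and 118 to 136 FPKM in WT. Total counts were between 5669951 and 11793688 per library, and the 7 prototrophy markers, among them URA3 and LEU2, were expressed in every library. On the first principal component, which held 23.0% of the variance, 2 libraries separated from the rest of their groups, ect1Δ pct1Δ replicate 2 and WT replicate 3, and values without both are given for the members that deviate most in them. Of all genes, 6083 passed the filter on low counts and entered the edgeR quasi-likelihood fit, and a gene was called at a Benjamini-Hochberg adjusted p below 0.05. The deleted genes are among those tested and were called wherever their own strain was compared. The shares of all genes called given below therefore include them.

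All 35 members passed the filter, with 87 to 4031 counts per member and library. In WT the members were well expressed for yeast genes: 26 of the 35 lay above the median of all tested genes and 14 were among the top 25%, and the median member had 92.7 FPKM, against 41.6 FPKM over all tested genes. The highest WT level was that of TSC3, the small activating subunit of serine palmitoyltransferase, with 355 ± 34.0 FPKM (SD, n = 3). SCS7, the hydroxylase of the very long-chain fatty acid, followed with 278 ± 19.1 FPKM. At the low end, the kinase genes PKH2, PKH1 and YPK2 had 13.9 ± 2.48 FPKM, 13.7 ± 1.17 FPKM and 11.0 ± 1.09 FPKM. In the order of WT means, 13 of the 34 neighbouring pairs were further apart than the sum of their SDs. The widest of these steps relative to the spread lay between YPC1 and CSH1, which had 53.7 ± 2.08 FPKM and 38.5 ± 0.698 FPKM. PKH2 and PKH1 differed by less than their spread, and so did ISC1, with 54.2 ± 2.86 FPKM, and YPC1. The members summed to 3783 to 3880 FPKM in ect1Δ pct1Δ, 3804 to 3822 FPKM in cpt1Δ ept1Δ and 3696 to 3804 FPKM in WT, and they took 0.391 to 0.421% of all counts in every library.

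**Figure D1:**
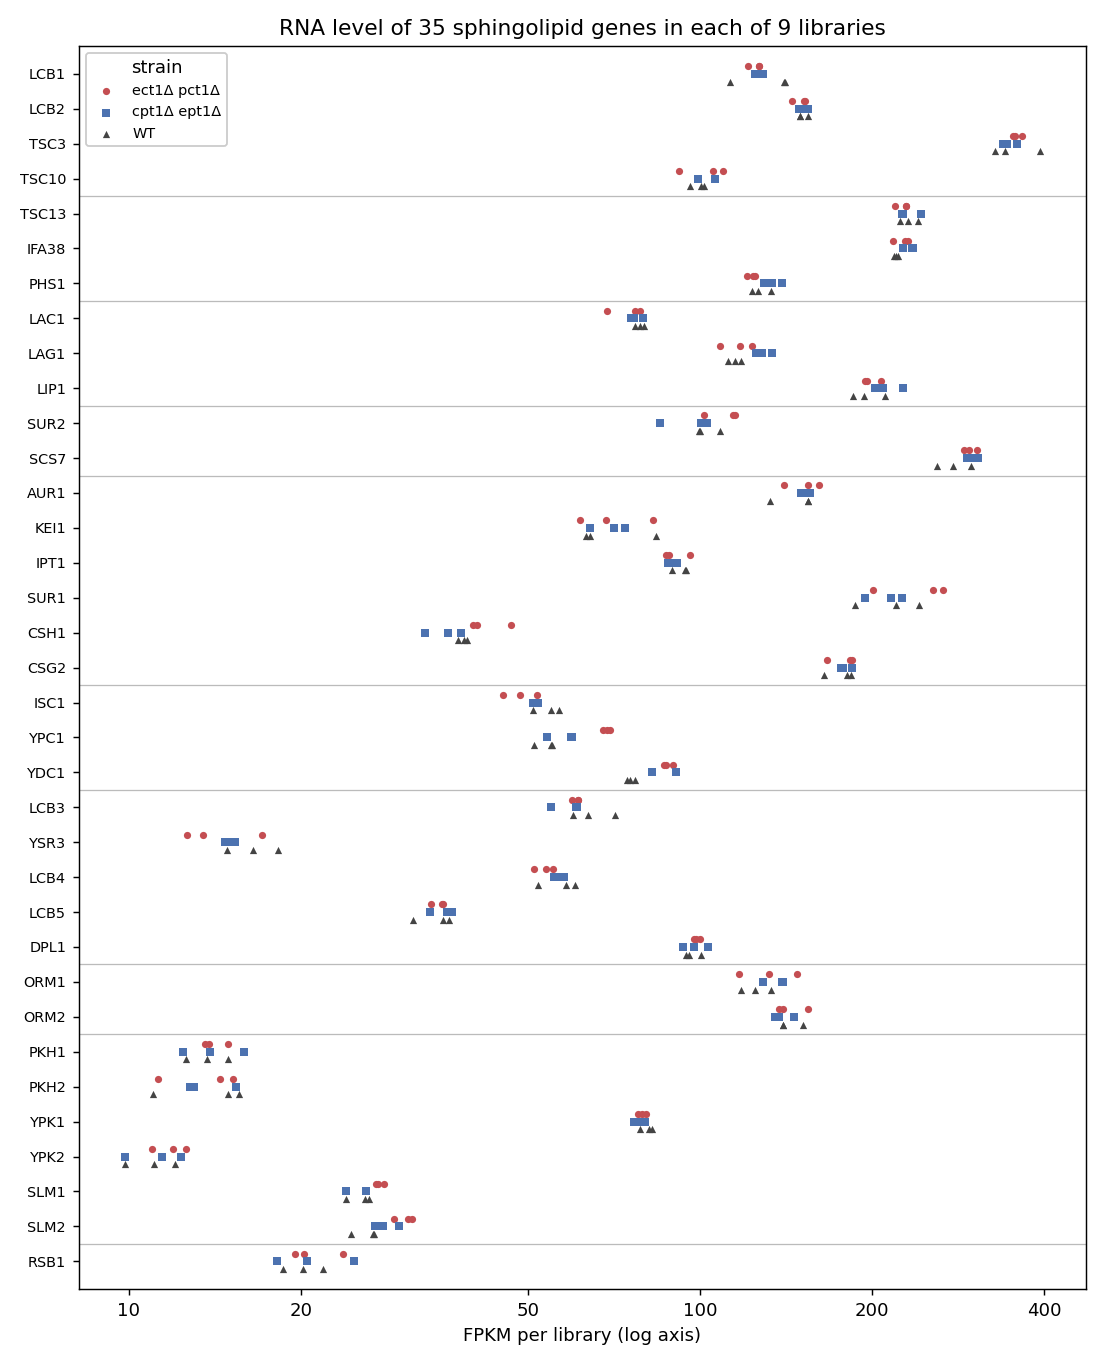
FPKM of the 35 members on a log axis, with a point for each of the 9 libraries and members grouped by role; groups are marked by colour. The members span TSC3, with a WT mean of 355 FPKM, to YPK2, with 11.0 FPKM, and the libraries of the 3 groups lie close together at nearly every gene.

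In ect1Δ pct1Δ over WT, the RNA of sphingolipid genes differed little, and the difference that passed the test was higher YPC1. Of the 35 members 1 was called (2.86%), against 0.460% of all genes tested. DESeq2 called 0 of the 35, and the YPC1 call was lost in 13 of 15 alternative settings. The log2 fold changes were between -0.22 (YSR3) and 0.34 (YPC1), with a median of 0.02, against 0.00 over all genes. They were positive in 22 members (62.9%), against 51.2% of all genes. At an unadjusted p below 0.05, 4 members stood out (11.4%, against 6.61% of all genes): YPC1, YDC1 and SLM2 were higher and ISC1 was lower. In 5 members the 3 ect1Δ pct1Δ libraries all lay above the 3 WT libraries (CSH1, YPC1, YDC1, SLM1 and SLM2; 14.3%, against 6.79% of all genes), and in 0 members did they all lie below, against 3.65% of all genes. The 95% intervals, unadjusted for the number of genes, lay within 1.5-fold either way for all 35 members and within 1.2-fold for 23.

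Between cpt1Δ ept1Δ and WT, no member was called by edgeR's quasi-likelihood test with Benjamini-Hochberg adjustment: 0 of 35, against 0.132% of all genes, and 0 by DESeq2. At an unadjusted p below 0.05 there were 2 (5.71%, against 5.28% of all genes), YDC1 and LAG1, both higher. The log2 fold changes were between -0.14 (YSR3) and 0.17 (YDC1), with a median of 0.01, against -0.0018 over all genes, and 18 of 35 were positive (51.4%, against 49.2%). The libraries did not overlap in 4 members (IFA38, LAG1, YDC1 and SLM2), all higher (11.4%, against 5.26% of all genes), and 0 members lay below without overlap, against 4.96%. For 24 members the 95% interval lay within 1.2-fold, and for all 35 within 1.5-fold. YDC1 and SLM2 thus lay above WT in every library of both deletion strains, but both comparisons use the same 3 WT libraries.

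For cpt1Δ ept1Δ over ect1Δ pct1Δ, which sets the 2 blocks of the same pathway against each other, 0 of 35 members were called, against 0.197% of all genes, and DESeq2 called 0 as well. At an unadjusted p below 0.05 there were 4 members (11.4%, against 4.72% of all genes): LAG1 was higher and YPC1, CSH1 and SUR2 were lower. Fold changes on the log2 scale were between -0.24 (YPC1) and 0.15 (LAG1), with a median of 0.02, against -0.0034 over all genes, and 21 were positive (60.0%, against 48.4%). In 3 members the cpt1Δ ept1Δ libraries all lay above (PHS1, LAG1 and LCB4; 8.57%, against 3.98% of all genes), and in 3 they all lay below (CSH1, YPC1 and SLM1; 8.57%, against 6.10%). The 95% interval was within 1.2-fold for 25 members and within 1.5-fold for all 35.

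**Figure D2:**
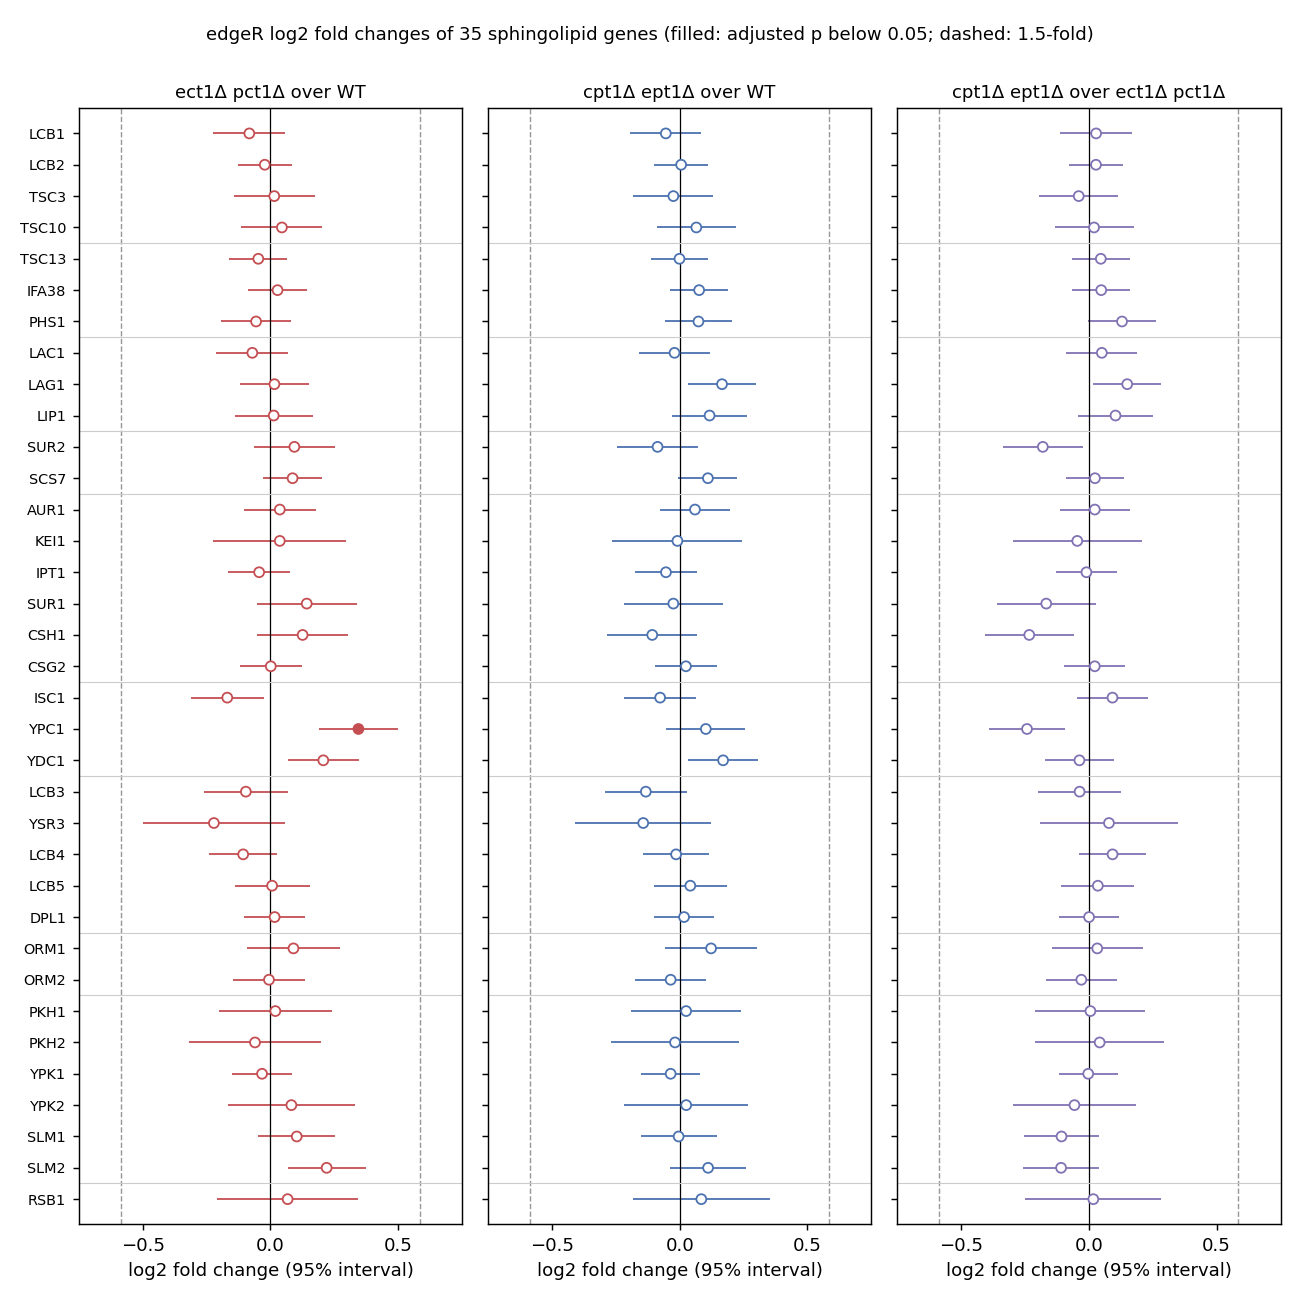
Log2 fold changes of the 35 members from edgeR in the 3 comparisons, with 95% intervals as bars, dashed lines at 1.5-fold, a filled point for the call and members ordered by role. YPC1 stands at 0.34 in ect1Δ pct1Δ over WT, and the bars of most other members cross 0.

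YPC1, YDC1 and ISC1 are the members of ceramide and complex sphingolipid breakdown. YPC1 had the highest log2 fold change of the members in ect1Δ pct1Δ over WT. In cpt1Δ ept1Δ over WT the highest were YDC1 and the ceramide synthase gene LAG1, both at 0.17 ± 0.06 and not told apart by their spread. YPC1 (YBR183W, chromosome II, 596115 to 597065, plus strand) had 67.5, 68.7 and 69.5 FPKM in ect1Δ pct1Δ, 59.5, 54.0 and 59.7 FPKM in cpt1Δ ept1Δ, and 55.0, 51.3 and 54.8 FPKM in WT. All 3 ect1Δ pct1Δ libraries lay above every cpt1Δ ept1Δ and WT library, while cpt1Δ ept1Δ and WT overlapped. YPC1 rose by 0.34 ± 0.07 (log2, SE) in ect1Δ pct1Δ over WT, a fold of 1.27, with an adjusted p of 0.0466 in edgeR's quasi-likelihood test with Benjamini-Hochberg adjustment. Its log2 fold change was 0.10 ± 0.07 in cpt1Δ ept1Δ over WT and -0.24 ± 0.07 in cpt1Δ ept1Δ over ect1Δ pct1Δ, with edgeR adjusted p of 1.00 and 0.456. The call lay close to the threshold: its adjusted p was 0.0376 to 0.242 over 15 alternative settings and passed in 2 of them, while the log2 fold change stayed between 0.31 and 0.36. It was lost when any 1 library other than WT replicate 3 was left out, and the edgeR adjusted p was 0.0964 without both libraries that stand apart.

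YDC1 (YPL087W, chromosome XVI, 383455 to 384408, plus strand) had 89.6, 86.5 and 87.1 FPKM in ect1Δ pct1Δ, 90.8, 82.3 and 82.3 FPKM in cpt1Δ ept1Δ, and 75.3, 74.5 and 77.0 FPKM in WT. Every library of both deletion strains exceeded the WT libraries, and the deletion strains overlapped each other. The log2 fold changes were 0.21 ± 0.07 in ect1Δ pct1Δ over WT, 0.17 ± 0.06 in cpt1Δ ept1Δ over WT and -0.04 ± 0.06 in cpt1Δ ept1Δ over ect1Δ pct1Δ. YDC1 was not called, with edgeR adjusted p of 0.385, 0.844 and 0.999 in the same order. ISC1 encodes the phospholipase C that returns complex sphingolipids to ceramide, and it had 51.8, 48.4 and 45.1 FPKM in ect1Δ pct1Δ, 52.0, 51.3 and 51.1 FPKM in cpt1Δ ept1Δ, and 54.9, 56.7 and 51.1 FPKM in WT. Its ect1Δ pct1Δ values were on the low side, with 1 library inside the WT range. The ISC1 log2 fold changes were -0.17 ± 0.07 in ect1Δ pct1Δ over WT, -0.08 ± 0.07 in cpt1Δ ept1Δ over WT and 0.09 ± 0.07 in cpt1Δ ept1Δ over ect1Δ pct1Δ. Its edgeR adjusted p in ect1Δ pct1Δ over WT was 0.644. In ect1Δ pct1Δ over WT the 2 ceramidase genes thus had positive values and the phospholipase gene a negative one, and of these only YPC1 was called. The signs were the same in cpt1Δ ept1Δ over WT, which uses the same WT libraries. There the YPC1 and ISC1 libraries overlapped WT. The 3 genes together summed to 202 to 209 FPKM in ect1Δ pct1Δ, 188 to 202 FPKM in cpt1Δ ept1Δ and 183 to 185 FPKM in WT.

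**Figure D3:**
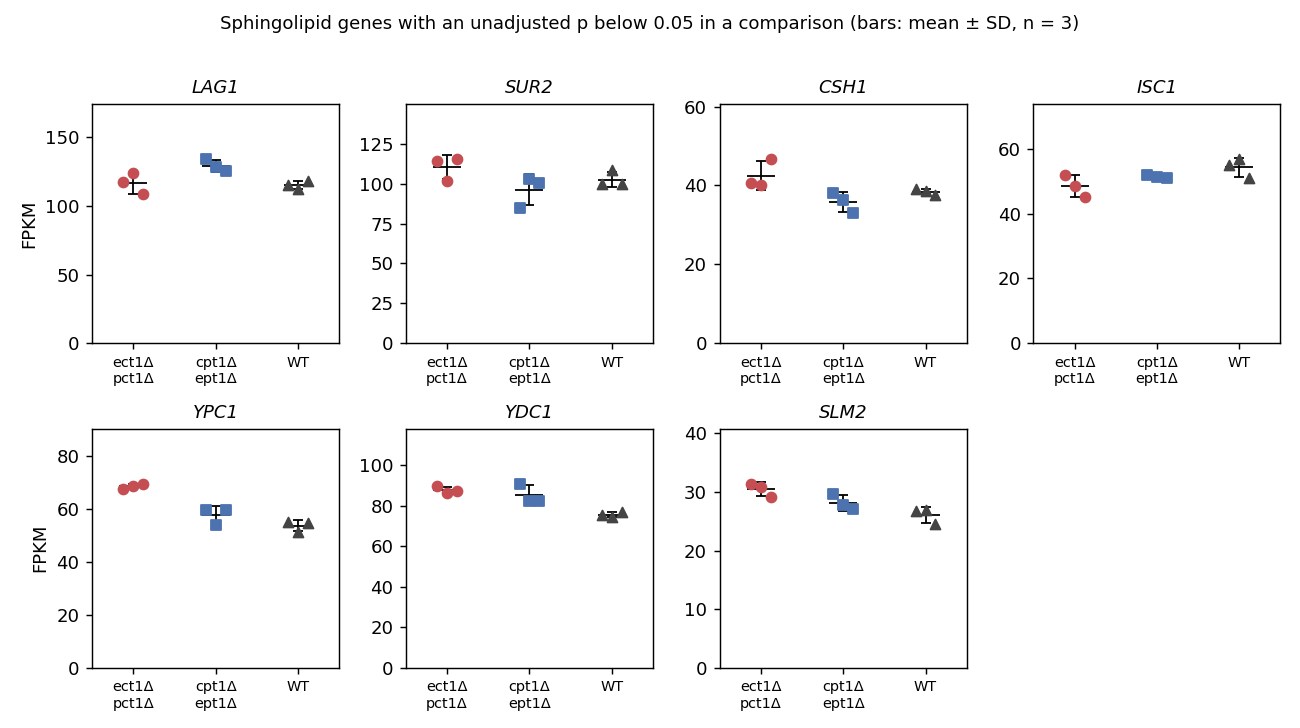
FPKM per library of the 7 members with an unadjusted edgeR p below 0.05 in any comparison, on axes that start at 0, with bars for mean ± SD (n = 3) and ect1Δ pct1Δ, cpt1Δ ept1Δ and WT from left to right. The 3 ect1Δ pct1Δ points of YPC1, 67.5 to 69.5 FPKM, stand above the cpt1Δ ept1Δ and WT points, and the YDC1 points of both deletion strains stand above WT.

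Markers of stress and of growth past log phase had their highest summed level in ect1Δ pct1Δ. All 12 such markers, among them YGP1, a secreted glycoprotein, and DDR2 and HSP26, were detected in every library, and all 12 had positive log2 fold changes in ect1Δ pct1Δ over WT (against 51.2% of all genes), with a median of 0.32. Of these, 6 had an unadjusted p below 0.05 (against 6.61% of all genes), and 1 was called, against 0.460%. Their summed level was 329 to 388 FPKM in ect1Δ pct1Δ, 294 to 323 FPKM in cpt1Δ ept1Δ and 257 to 288 FPKM in WT, with no overlap between groups. YGP1 was the marker called (log2 fold change 0.55 ± 0.11, edgeR adjusted p 0.0352 with Benjamini-Hochberg adjustment), and that call was lost in 7 of 15 alternatives. In cpt1Δ ept1Δ over WT, 9 of 12 markers were positive (against 49.2% of all genes), with a median of 0.12, and 1 had an unadjusted p below 0.05, against 5.28%. In cpt1Δ ept1Δ over ect1Δ pct1Δ, 1 of 12 was positive (against 48.4% of all genes), with a median of -0.19, and 4 had an unadjusted p below 0.05, against 4.72%. In both of these comparisons 0 were called by edgeR (against 0.132% and 0.197% of all genes) and 0 by DESeq2. Without both libraries that stand apart, all 12 were still positive in ect1Δ pct1Δ over WT, with a median of 0.26. HSP26 was then called in cpt1Δ ept1Δ over WT (log2 fold change 0.54, edgeR adjusted p 0.0347). The part of these markers in the YPC1 and YDC1 values was not tested.

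YPC1 and YDC1 are related in sequence, which could matter for how reads are assigned. Their coding sequences were 61.7% identical over 940 aligned bases. The longest run they shared was 13 bases, so any longer stretch of either coding sequence differs from the other. That run is shown with 20 bases on either side, from the R64 coding sequences (positions 234 to 286 of YPC1 and 231 to 283 of YDC1, counted from the A of the start codon), with capitals at the 16 bases that differ.
YPC1 coding stretch: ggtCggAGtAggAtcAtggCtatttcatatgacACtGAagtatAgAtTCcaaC
YDC1 coding stretch: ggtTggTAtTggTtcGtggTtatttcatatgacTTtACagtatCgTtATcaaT
The ratio of YPC1 to YDC1, both in FPKM, was 0.753, 0.795 and 0.799 in ect1Δ pct1Δ, 0.655, 0.657 and 0.725 in cpt1Δ ept1Δ, and 0.730, 0.688 and 0.712 in WT. It lay higher in every ect1Δ pct1Δ library than in any other library. An exact permutation test over 3 against 3 libraries cannot go below a two-sided p of 0.1, which this ratio reached in ect1Δ pct1Δ over WT and in cpt1Δ ept1Δ over ect1Δ pct1Δ. Over the 9 isozyme pairs of the pathway and 3 comparisons, 27 such exact tests were run, 8 reached that smallest p, and the smallest Benjamini-Hochberg adjusted value was 0.338.

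No gene of long-chain base synthesis was called. LCB1 and LCB2 encode the catalytic subunits of serine palmitoyltransferase, and TSC10 the reductase that follows it. Over the 4 genes, TSC3 included, the log2 fold changes were between -0.08 and 0.04 in ect1Δ pct1Δ over WT, -0.05 and 0.07 in cpt1Δ ept1Δ over WT and -0.04 and 0.03 in cpt1Δ ept1Δ over ect1Δ pct1Δ, and 0 were called. LCB1 had 113 to 141 FPKM over the 9 libraries and log2 fold changes of -0.08 ± 0.07 in ect1Δ pct1Δ over WT, -0.05 ± 0.07 in cpt1Δ ept1Δ over WT and 0.03 ± 0.07 in cpt1Δ ept1Δ over ect1Δ pct1Δ. LCB2 had 150.0 ± 4.43 FPKM in ect1Δ pct1Δ, 152 ± 2.63 FPKM in cpt1Δ ept1Δ and 151 ± 2.86 FPKM in WT (SD, n = 3 each), with log2 fold changes of -0.02 ± 0.05 in ect1Δ pct1Δ over WT, 0.01 ± 0.05 in cpt1Δ ept1Δ over WT and 0.03 ± 0.05 in cpt1Δ ept1Δ over ect1Δ pct1Δ. For TSC3 the log2 fold changes were 0.01 ± 0.08 in ect1Δ pct1Δ over WT, -0.02 ± 0.07 in cpt1Δ ept1Δ over WT and -0.04 ± 0.07 in cpt1Δ ept1Δ over ect1Δ pct1Δ. For TSC10, which had 92.0 to 109.8 FPKM, they were 0.04 ± 0.08 in ect1Δ pct1Δ over WT, 0.07 ± 0.07 in cpt1Δ ept1Δ over WT and 0.02 ± 0.07 in cpt1Δ ept1Δ over ect1Δ pct1Δ. WT replicate 3 was the outer WT library for LCB1, with 113 FPKM beside 140.4 and 141 FPKM in the other WT libraries, and for TSC3, with 393 FPKM beside 329 and 342 FPKM.

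The fatty acid elongation cycle supplies the very long-chain acyl-CoA of ceramide. IFA38 encodes its ketoacyl reductase, PHS1 its dehydratase and TSC13 its enoyl reductase. IFA38 had 229, 231 and 218 FPKM in ect1Δ pct1Δ, 235, 226 and 236 FPKM in cpt1Δ ept1Δ, and 219, 220.2 and 222 FPKM in WT. Its cpt1Δ ept1Δ libraries lay above WT without overlap, by a log2 fold change of 0.08 ± 0.05 (edgeR adjusted p 1.00). PHS1 had 121, 124 and 125 FPKM in ect1Δ pct1Δ, 134, 129 and 139 FPKM in cpt1Δ ept1Δ, and 127, 133 and 123 FPKM in WT. Its cpt1Δ ept1Δ libraries lay above the ect1Δ pct1Δ libraries, while WT spanned the gap. The PHS1 log2 fold changes were -0.06 ± 0.06 in ect1Δ pct1Δ over WT, 0.07 ± 0.06 in cpt1Δ ept1Δ over WT and 0.13 ± 0.06 in cpt1Δ ept1Δ over ect1Δ pct1Δ, and its edgeR adjusted p in cpt1Δ ept1Δ over ect1Δ pct1Δ was 0.999. IFA38 had log2 fold changes of 0.03 ± 0.05 in ect1Δ pct1Δ over WT and 0.05 ± 0.05 in cpt1Δ ept1Δ over ect1Δ pct1Δ. TSC13 had 219.6 to 244 FPKM over the 9 libraries, and its log2 fold changes were -0.05 ± 0.05 in ect1Δ pct1Δ over WT, -0.00064 ± 0.05 in cpt1Δ ept1Δ over WT and 0.05 ± 0.05 in cpt1Δ ept1Δ over ect1Δ pct1Δ.

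Ceramide synthase has 2 alternative catalytic subunits, encoded by LAC1 and LAG1, and a regulatory subunit encoded by LIP1. LAG1 (YHL003C, chromosome VIII, 100648 to 101883, minus strand) had 118, 123 and 108 FPKM in ect1Δ pct1Δ, 134, 128 and 125 FPKM in cpt1Δ ept1Δ, and 115, 112 and 118 FPKM in WT. The cpt1Δ ept1Δ libraries all lay above both other groups, which overlapped each other. Its log2 fold changes were 0.02 ± 0.06 in ect1Δ pct1Δ over WT, 0.17 ± 0.06 in cpt1Δ ept1Δ over WT and 0.15 ± 0.06 in cpt1Δ ept1Δ over ect1Δ pct1Δ. LAG1 was not called, with edgeR adjusted p of 0.987, 0.868 and 0.971 in the same order. Its value in cpt1Δ ept1Δ over ect1Δ pct1Δ was 0.10 without ect1Δ pct1Δ replicate 3. LAC1 (YKL008C, chromosome XI, 427295 to 428551, minus strand) had 77.0, 78.4 and 68.7 FPKM in ect1Δ pct1Δ, 76.7, 79.5 and 75.8 FPKM in cpt1Δ ept1Δ, and 78.5, 76.9 and 79.9 FPKM in WT. Its groups overlapped in every comparison, with log2 fold changes of -0.07 ± 0.07 in ect1Δ pct1Δ over WT, -0.02 ± 0.07 in cpt1Δ ept1Δ over WT and 0.05 ± 0.07 in cpt1Δ ept1Δ over ect1Δ pct1Δ. LIP1 had 196, 194 and 207 FPKM in ect1Δ pct1Δ, 227, 203 and 209 FPKM in cpt1Δ ept1Δ, and 185, 194 and 211 FPKM in WT. It also overlapped between groups, with log2 fold changes of 0.01 ± 0.07 in ect1Δ pct1Δ over WT, 0.12 ± 0.07 in cpt1Δ ept1Δ over WT and 0.10 ± 0.07 in cpt1Δ ept1Δ over ect1Δ pct1Δ.

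The ratio of LAC1 to LAG1, both in FPKM, was 0.656, 0.635 and 0.635 in ect1Δ pct1Δ, 0.573, 0.620 and 0.605 in cpt1Δ ept1Δ, and 0.683, 0.686 and 0.677 in WT. All 3 groups were apart, with WT highest and cpt1Δ ept1Δ lowest. On the log2 scale the ratio differed by -0.09 in ect1Δ pct1Δ over WT, -0.19 in cpt1Δ ept1Δ over WT and -0.10 in cpt1Δ ept1Δ over ect1Δ pct1Δ, each with the smallest two-sided p that the exact permutation test allows, 0.1 (adjusted 0.338 over 27 tests). Without both libraries that stand apart the differences were -0.09, -0.19 and -0.11 in the same order. The first and second of these share the WT libraries. Of the 9 pairs these genes shared the longest identical run, 19 bases within 69.1% identity, and it is shown with its flanks (positions 597 to 655 of both R64 coding sequences, counted from the A of the start codon), with capitals at the 11 bases that differ.
LAC1 coding stretch: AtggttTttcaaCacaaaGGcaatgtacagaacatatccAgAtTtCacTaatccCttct
LAG1 coding stretch: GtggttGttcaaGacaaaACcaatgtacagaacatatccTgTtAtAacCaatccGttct
Over the 9 pairs the identity was 61.7 to 69.8% and the longest shared run 11 to 19 bases.

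**Figure D4:**
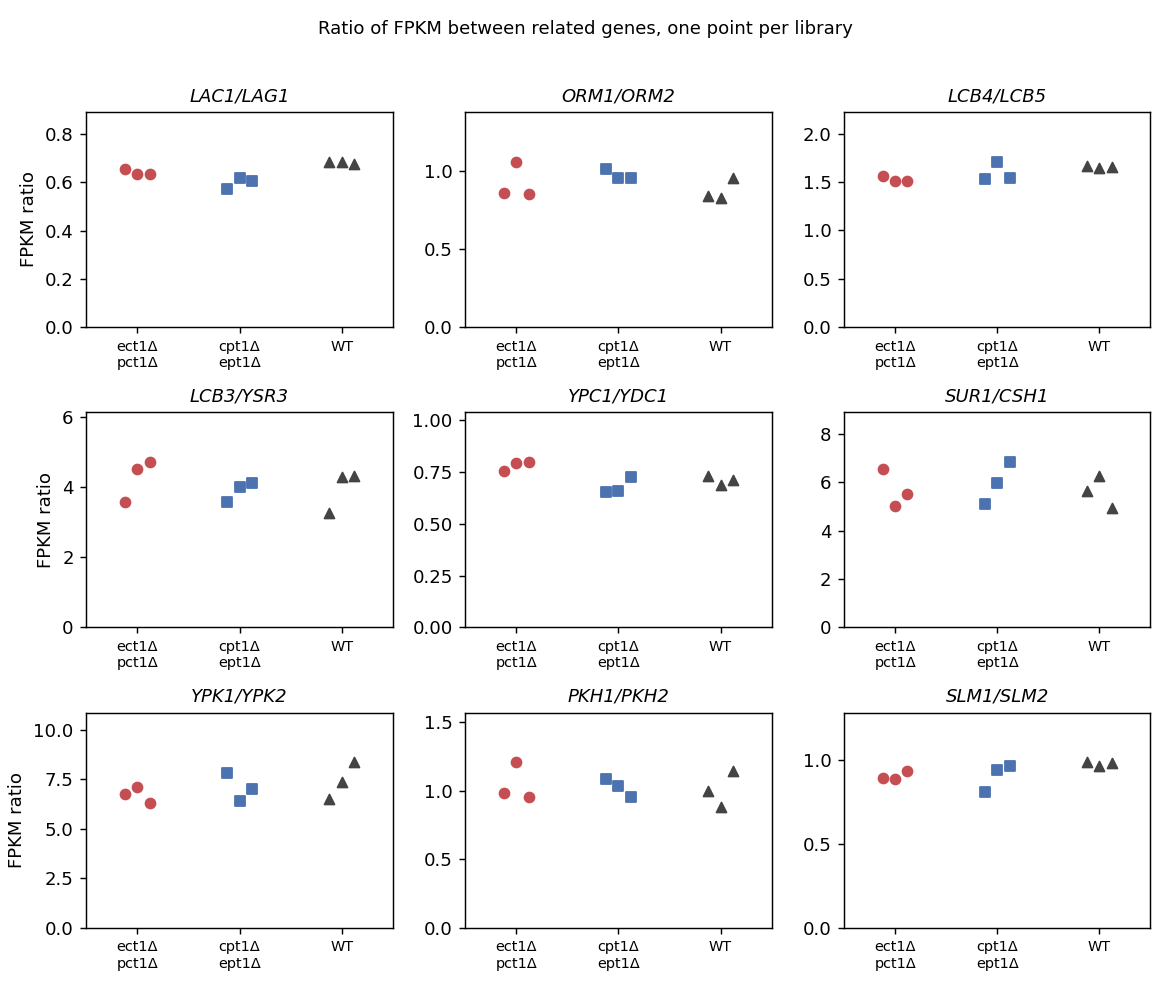
Ratio of FPKM within each of the 9 isozyme pairs in every library, on linear axes that start at 0, with ect1Δ pct1Δ, cpt1Δ ept1Δ and WT from left to right in each pair. The LAC1 to LAG1 points fall into 3 levels, 0.635 to 0.656, 0.573 to 0.620 and 0.677 to 0.686.

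The hydroxylase genes were not called either. SUR2, whose product adds the hydroxyl group that turns dihydrosphingosine into phytosphingosine, had 114, 102 and 115 FPKM in ect1Δ pct1Δ, 85.0, 103 and 100.5 FPKM in cpt1Δ ept1Δ, and 99.6, 108 and 99.8 FPKM in WT. All groups overlapped, and cpt1Δ ept1Δ replicate 1 was lowest. SUR2 log2 fold changes were 0.09 ± 0.08 in ect1Δ pct1Δ over WT, -0.09 ± 0.07 in cpt1Δ ept1Δ over WT and -0.18 ± 0.07 in cpt1Δ ept1Δ over ect1Δ pct1Δ, with an edgeR adjusted p of 0.971 in the last. Without cpt1Δ ept1Δ replicate 1 the SUR2 value was -0.0094 in cpt1Δ ept1Δ over WT and -0.10 in cpt1Δ ept1Δ over ect1Δ pct1Δ. SCS7 had 306, 296 and 289 FPKM in ect1Δ pct1Δ, 294, 306 and 301 FPKM in cpt1Δ ept1Δ, and 277, 298 and 259.6 FPKM in WT. The groups overlapped again. SCS7 log2 fold changes were 0.09 ± 0.06 in ect1Δ pct1Δ over WT, 0.11 ± 0.05 in cpt1Δ ept1Δ over WT and 0.02 ± 0.05 in cpt1Δ ept1Δ over ect1Δ pct1Δ, with an edgeR adjusted p of 0.948 in cpt1Δ ept1Δ over WT. DPL1 lies 4322 bases from SUR2 on chromosome IV, in the opposite orientation.

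In complex sphingolipid synthesis, Aur1 with its subunit Kei1 makes inositol phosphorylceramide, Sur1 or Csh1 with the regulatory subunit Csg2 adds mannose, and Ipt1 adds the last inositol phosphate. CSH1 had 40.7, 40.0 and 46.6 FPKM in ect1Δ pct1Δ, 38.2, 36.2 and 33.0 FPKM in cpt1Δ ept1Δ, and 39.1, 38.6 and 37.7 FPKM in WT. Its ect1Δ pct1Δ libraries lay above both other groups. The CSH1 log2 fold changes were 0.13 ± 0.08 in ect1Δ pct1Δ over WT, -0.11 ± 0.08 in cpt1Δ ept1Δ over WT and -0.23 ± 0.08 in cpt1Δ ept1Δ over ect1Δ pct1Δ, with an edgeR adjusted p of 0.709 in cpt1Δ ept1Δ over ect1Δ pct1Δ. The CSH1 value over WT was 0.07 in ect1Δ pct1Δ without replicate 3 of that strain, and -0.06 in cpt1Δ ept1Δ without replicate 3 of that strain. SUR1, the more abundant of the pair, had 266, 201 and 256 FPKM in ect1Δ pct1Δ, 195, 216 and 226 FPKM in cpt1Δ ept1Δ, and 220.2, 241 and 187 FPKM in WT. The library spread of SUR1 was wide: ect1Δ pct1Δ replicate 2 and WT replicate 3 were each the lowest of their group. SUR1 log2 fold changes were 0.14 ± 0.09 in ect1Δ pct1Δ over WT, -0.02 ± 0.09 in cpt1Δ ept1Δ over WT and -0.17 ± 0.09 in cpt1Δ ept1Δ over ect1Δ pct1Δ. The ratio of SUR1 to CSH1, in FPKM, was 6.54, 5.02 and 5.49 in ect1Δ pct1Δ, 5.09, 5.95 and 6.83 in cpt1Δ ept1Δ, and 5.63, 6.25 and 4.95 in WT, with overlap throughout. AUR1 had 133 to 161 FPKM, IPT1 87.2 to 96.1 FPKM and CSG2 165 to 185 FPKM over the 9 libraries. These 3 genes had log2 fold changes between -0.05 and 0.06. In the order ect1Δ pct1Δ over WT, cpt1Δ ept1Δ over WT and cpt1Δ ept1Δ over ect1Δ pct1Δ, they were 0.04, 0.06 and 0.02 for AUR1, -0.04, -0.05 and -0.01 for IPT1 and 0.0013, 0.02 and 0.02 for CSG2. KEI1 had log2 fold changes of 0.04 ± 0.12 in ect1Δ pct1Δ over WT, -0.01 ± 0.12 in cpt1Δ ept1Δ over WT and -0.05 ± 0.12 in cpt1Δ ept1Δ over ect1Δ pct1Δ. IFA38 and CSH1, neighbours on chromosome II with 1905 bases between them, had unlike values: CSH1 was at -0.23 and IFA38 at 0.05 in cpt1Δ ept1Δ over ect1Δ pct1Δ.

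The long-chain base phosphate cycle consists of the kinases Lcb4 and Lcb5, the phosphatases Lcb3 and Ysr3, and the lyase Dpl1, whose products are a fatty aldehyde and phosphoethanolamine. DPL1, the exit of the pathway towards phosphoethanolamine, had 99.8, 97.6 and 98.4 FPKM in ect1Δ pct1Δ, 93.2, 103 and 97.5 FPKM in cpt1Δ ept1Δ, and 100.2, 94.5 and 95.8 FPKM in WT. The groups overlapped, and the log2 fold changes were 0.02 ± 0.06 in ect1Δ pct1Δ over WT, 0.02 ± 0.06 in cpt1Δ ept1Δ over WT and 0.00095 ± 0.06 in cpt1Δ ept1Δ over ect1Δ pct1Δ. Its 95% interval in ect1Δ pct1Δ over WT was -0.10 to 0.14 on the log2 scale, and in cpt1Δ ept1Δ over WT -0.10 to 0.14. LCB4 had 55.3, 51.3 and 53.7 FPKM in ect1Δ pct1Δ, 56.2, 57.8 and 55.6 FPKM in cpt1Δ ept1Δ, and 60.5, 58.2 and 52.1 FPKM in WT. The cpt1Δ ept1Δ libraries lay above the ect1Δ pct1Δ libraries, with WT on both sides. LCB4 log2 fold changes were -0.11 ± 0.06 in ect1Δ pct1Δ over WT, -0.01 ± 0.06 in cpt1Δ ept1Δ over WT and 0.09 ± 0.06 in cpt1Δ ept1Δ over ect1Δ pct1Δ. An annotated gene, YOR170W, overlaps LCB4 by 154 bases on the other strand and was listed at 17.9 to 30.3 FPKM; the sources used here do not give whether counting used strand. LCB5 had 35.3, 33.9 and 35.5 FPKM in ect1Δ pct1Δ, 36.8, 33.7 and 36.0 FPKM in cpt1Δ ept1Δ, and 36.3, 35.5 and 31.4 FPKM in WT. The groups overlapped, with log2 fold changes of 0.01 ± 0.07 in ect1Δ pct1Δ over WT, 0.04 ± 0.07 in cpt1Δ ept1Δ over WT and 0.04 ± 0.07 in cpt1Δ ept1Δ over ect1Δ pct1Δ. The ratio of LCB4 to LCB5, in FPKM, was 1.57, 1.51 and 1.51 in ect1Δ pct1Δ, 1.53, 1.71 and 1.54 in cpt1Δ ept1Δ, and 1.67, 1.64 and 1.66 in WT. It was lower in every ect1Δ pct1Δ library than in WT (exact permutation p 0.1, the smallest possible). LCB3 had 61.2, 61.1 and 59.6 FPKM in ect1Δ pct1Δ, 54.9, 60.6 and 60.8 FPKM in cpt1Δ ept1Δ, and 59.8, 63.6 and 71.1 FPKM in WT, with log2 fold changes of -0.10 ± 0.08 in ect1Δ pct1Δ over WT, -0.13 ± 0.08 in cpt1Δ ept1Δ over WT and -0.04 ± 0.08 in cpt1Δ ept1Δ over ect1Δ pct1Δ. YSR3, the lowest of the 5 genes, had 17.1, 13.5 and 12.6 FPKM in ect1Δ pct1Δ, 15.4, 15.2 and 14.8 FPKM in cpt1Δ ept1Δ, and 18.3, 14.8 and 16.5 FPKM in WT. Its log2 fold changes were -0.22 ± 0.13 in ect1Δ pct1Δ over WT, -0.14 ± 0.13 in cpt1Δ ept1Δ over WT and 0.08 ± 0.13 in cpt1Δ ept1Δ over ect1Δ pct1Δ. Both phosphatase genes overlapped between groups. The ratio of LCB3 to YSR3, in FPKM, was 3.57 to 4.72 in ect1Δ pct1Δ, 3.57 to 4.12 in cpt1Δ ept1Δ and 3.28 to 4.31 in WT, with overlap in each comparison.

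ORM1 and ORM2 encode inhibitors of serine palmitoyltransferase whose hold on the enzyme is relieved by phosphorylation when sphingolipids run low. ORM1 had 132, 148 and 117 FPKM in ect1Δ pct1Δ, 139, 129 and 139.9 FPKM in cpt1Δ ept1Δ, and 118, 125 and 133 FPKM in WT. ORM2 had 154, 139 and 137 FPKM in ect1Δ pct1Δ, 138, 135 and 146 FPKM in cpt1Δ ept1Δ, and 140.0, 151 and 139.6 FPKM in WT. Both genes overlapped between all groups. The log2 fold changes were 0.09 ± 0.09 in ect1Δ pct1Δ over WT, 0.12 ± 0.09 in cpt1Δ ept1Δ over WT and 0.03 ± 0.08 in cpt1Δ ept1Δ over ect1Δ pct1Δ for ORM1. For ORM2 they were -0.01 ± 0.07 in ect1Δ pct1Δ over WT, -0.04 ± 0.07 in cpt1Δ ept1Δ over WT and -0.03 ± 0.07 in cpt1Δ ept1Δ over ect1Δ pct1Δ. Neither gene was called. The ORM1 to ORM2 ratio, in FPKM, was 0.852 to 1.06 in ect1Δ pct1Δ, 0.952 to 1.01 in cpt1Δ ept1Δ and 0.825 to 0.956 in WT, and the groups overlapped.

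Pkh1 and Pkh2 are kinases that respond to long-chain bases, Ypk1 and Ypk2 are their substrates and phosphorylate the Orm proteins, and Slm1 and Slm2 bring Ypk1 to the plasma membrane when sphingolipids are depleted. SLM2 (YNL047C, chromosome XIV, 539911 to 541881, minus strand) had 31.4, 30.8 and 29.1 FPKM in ect1Δ pct1Δ, 29.7, 27.8 and 27.0 FPKM in cpt1Δ ept1Δ, and 26.7, 26.9 and 24.4 FPKM in WT. All libraries of both deletion strains lay above WT. SLM2 log2 fold changes were 0.22 ± 0.07 in ect1Δ pct1Δ over WT, 0.11 ± 0.07 in cpt1Δ ept1Δ over WT and -0.11 ± 0.07 in cpt1Δ ept1Δ over ect1Δ pct1Δ, with an edgeR adjusted p of 0.408 in ect1Δ pct1Δ over WT, so it was not called. SLM1 had 28.0, 27.3 and 27.1 FPKM in ect1Δ pct1Δ, 24.0, 26.1 and 26.0 FPKM in cpt1Δ ept1Δ, and 26.3, 25.9 and 24.0 FPKM in WT. Its ect1Δ pct1Δ libraries lay above those of both other groups. The log2 fold changes were 0.10 ± 0.07 in ect1Δ pct1Δ over WT, -0.004 ± 0.07 in cpt1Δ ept1Δ over WT and -0.11 ± 0.07 in cpt1Δ ept1Δ over ect1Δ pct1Δ. The ratio of SLM1 to SLM2, in FPKM, was 0.893, 0.886 and 0.933 in ect1Δ pct1Δ, 0.808, 0.936 and 0.961 in cpt1Δ ept1Δ, and 0.985, 0.965 and 0.982 in WT. It was lower in every library of either deletion strain than in WT (exact permutation p 0.1 in both comparisons, which share the WT libraries). The kinase genes overlapped in every comparison. YPK1 had 80.5, 78.0 and 79.2 FPKM in ect1Δ pct1Δ, 76.7, 78.9 and 80.2 FPKM in cpt1Δ ept1Δ, and 78.4, 81.4 and 82.3 FPKM in WT. YPK2 had 11.9, 11.0 and 12.6 FPKM in ect1Δ pct1Δ, 9.83, 12.3 and 11.4 FPKM in cpt1Δ ept1Δ, and 12.0, 11.1 and 9.85 FPKM in WT. YPK1 was the more abundant in every library. PKH1 had 14.9, 13.6 and 13.8 FPKM in ect1Δ pct1Δ, 13.9, 15.9 and 12.4 FPKM in cpt1Δ ept1Δ, and 14.9, 13.7 and 12.6 FPKM in WT. PKH2 had 15.2, 11.3 and 14.4 FPKM in ect1Δ pct1Δ, 12.8, 15.4 and 13.0 FPKM in cpt1Δ ept1Δ, and 14.9, 15.6 and 11.0 FPKM in WT. PKH1 and PKH2 lay in the same range. In the order ect1Δ pct1Δ over WT, cpt1Δ ept1Δ over WT and cpt1Δ ept1Δ over ect1Δ pct1Δ, the log2 fold changes were -0.03, -0.04 and -0.0023 for YPK1, 0.08, 0.03 and -0.06 for YPK2, 0.02, 0.03 and 0.01 for PKH1 and -0.06, -0.02 and 0.04 for PKH2. The ratio of YPK1 to YPK2, in FPKM, was 6.30 to 7.09 in ect1Δ pct1Δ, 6.40 to 7.81 in cpt1Δ ept1Δ and 6.51 to 8.36 in WT. The ratio of PKH1 to PKH2 was 0.954 to 1.21 in ect1Δ pct1Δ, 0.957 to 1.09 in cpt1Δ ept1Δ and 0.878 to 1.14 in WT. PKH2 overlaps the annotated gene YOL099C by 466 bases on the other strand, which was listed at 4.86 to 9.28 FPKM, and reads of the 2 genes cannot be told apart without strand.

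RSB1, which encodes a membrane protein that exports long-chain bases, had 23.7, 20.3 and 19.5 FPKM in ect1Δ pct1Δ, 18.2, 24.8 and 20.5 FPKM in cpt1Δ ept1Δ, and 18.6, 21.9 and 20.2 FPKM in WT. The groups overlapped, with log2 fold changes of 0.07 ± 0.13 in ect1Δ pct1Δ over WT, 0.08 ± 0.13 in cpt1Δ ept1Δ over WT and 0.02 ± 0.13 in cpt1Δ ept1Δ over ect1Δ pct1Δ. RSB1 is known as a target of the transcription factor Pdr1, as are several transporter genes. The pleiotropic drug response element, for which Pdr1 is known, was searched as TCCGCGGA, TCCACGGA and TCCGTGGA, the last 2 of which are reverse complements of each other. It was found within 500 bases of the start codon in 3 of the 35 members (8.57%) and in 1.65% of all 5983 windows. RSB1 was not among these 3 members. The 3 sites are shown with 12 bases on either side, 5′ to 3′ on the coding strand, from the R64 sequence at chrIV:576189-576220 (plus strand, LCB2), chrXI:428969-429000 (minus strand, LAC1) and chrIV:591778-591809 (minus strand, IPT1), with the element in capitals.
LCB2: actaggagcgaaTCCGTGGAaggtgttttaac
LAC1: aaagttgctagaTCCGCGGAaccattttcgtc
IPT1: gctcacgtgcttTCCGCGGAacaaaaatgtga
The log2 fold changes of these 3 members were between -0.07 and -0.02 in ect1Δ pct1Δ over WT and -0.05 and 0.01 in cpt1Δ ept1Δ over WT, and 0 of them were called. Of 12 Pdr1 regulon genes set beside them, 4 were positive and 8 negative in ect1Δ pct1Δ over WT, with a median of -0.03 and 1 call (against 0.460% of all genes). Without both libraries that stand apart that median was -0.14. That gene was PDR5, which encodes a multidrug transporter: it had 44.4, 39.5 and 40.9 FPKM in ect1Δ pct1Δ, 51.3, 48.2 and 46.9 FPKM in cpt1Δ ept1Δ, and 57.0, 50.05 and 47.6 FPKM in WT. It fell by 0.32 ± 0.07 (log2, SE; edgeR adjusted p 0.0322 with Benjamini-Hochberg adjustment; lost in 5 of 15 alternatives). Against WT, cpt1Δ ept1Δ had 3 positive and 9 negative values, with 0 called by edgeR (against 0.132% of all genes), 0 at an unadjusted p below 0.05 (against 5.28%) and 0 called by DESeq2.

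Genes that work around the members were set beside them. Of 24 such genes, among them the elongases ELO2 and ELO3, subunits of the TORC2 kinase and the eisosome genes PIL1 and LSP1, 14 were positive and 10 negative in ect1Δ pct1Δ over WT, with a median of 0.01. Of the 24, 1 was called (against 0.460% of all genes), and the same 1 had an unadjusted p below 0.05, against 6.61%. Without both libraries that stand apart, 10 were positive and the median was -0.0085. The gene called was FAA1, an acyl-CoA synthetase that activates fatty acids. FAA1 had 162, 143 and 148 FPKM in ect1Δ pct1Δ, 142, 141 and 145 FPKM in cpt1Δ ept1Δ, and 123, 126 and 111 FPKM in WT, with both deletion strains above WT in every library. Its log2 fold change was 0.32 ± 0.06 in ect1Δ pct1Δ over WT (edgeR adjusted p 0.0138 with Benjamini-Hochberg adjustment), and that call was lost without WT replicate 1 and without ect1Δ pct1Δ replicate 1, with an adjusted p of up to 0.102. FAA1 was at 0.25 ± 0.06 in cpt1Δ ept1Δ over WT, with an edgeR adjusted p of 0.177. In that comparison 13 were positive and 11 negative (against 49.2% positive over all genes). By edgeR's quasi-likelihood test 0 were called (against 0.132% of all genes), 2 had an unadjusted p below 0.05 (against 5.28%), and DESeq2 called 1. Without both libraries that stand apart, 8 of the 24 were positive. Between the deletion strains there were 12 positive and 12 negative (against 48.4% positive over all genes), with 0 called by edgeR (against 0.197%) or DESeq2 and 0 at an unadjusted p below 0.05 (against 4.72%).

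Within groups, several members deviated together in the libraries that stand apart. In WT replicate 3 and ect1Δ pct1Δ replicate 2, 10 members had their largest deviation of the group in both, and all 10 in the same direction (LCB1, TSC3, LAG1, KEI1, SUR1, CSG2, LCB3, LCB5, ORM1 and PKH2). WT replicate 3 alone held the largest deviation for 21 members, against 6 and 8 in WT replicates 1 and 2. The count for ect1Δ pct1Δ replicate 2 was 13, little different from 10 and 12 in replicates 1 and 3 of that strain. For cpt1Δ ept1Δ replicates 1 to 3 the counts were 15, 13 and 7. The share over all genes was not computed. The median absolute deviation of members was 0.034 in ect1Δ pct1Δ replicate 2, against 0.034 and 0.051 in replicates 1 and 3. Over all tested genes but the deleted ones, deviations in WT replicate 3 and ect1Δ pct1Δ replicate 2 had r = 0.365. KEI1 had 68.4, 82.6 and 61.7 FPKM in ect1Δ pct1Δ, 73.9, 64.2 and 70.8 FPKM in cpt1Δ ept1Δ, and 64.2, 63.2 and 83.9 FPKM in WT, so those 2 libraries were the highest of all 9. SUR1 and PKH2 were lowest in ect1Δ pct1Δ replicate 2 and WT replicate 3 within their groups. For KEI1 the spread within a group, with a coefficient of variation of 15.1% in ect1Δ pct1Δ, 7.08% in cpt1Δ ept1Δ and 16.6% in WT, was wider than any difference between group means. This likeness was seen in the values and has no test, and what sets these libraries apart was not tested. Without both libraries 0 members were called in any comparison. The log2 fold changes of these 10 members in ect1Δ pct1Δ over WT then became -0.16 for LCB1, 0.07 for TSC3, -0.02 for LAG1, 0.02 for KEI1, 0.17 for SUR1, 0.00011 for CSG2, -0.04 for LCB3, -0.03 for LCB5, 0.03 for ORM1 and -0.05 for PKH2. In this comparison LAG1 and LCB5 changed sign, and with all 9 libraries they were at 0.02 and 0.01. They became, in cpt1Δ ept1Δ over WT, -0.14 for LCB1, 0.06 for TSC3, 0.19 for LAG1, 0.14 for KEI1, -0.10 for SUR1, -0.01 for CSG2, -0.05 for LCB3, -0.01 for LCB5, 0.18 for ORM1 and -0.14 for PKH2. Here TSC3, KEI1, CSG2 and LCB5 changed sign, and the KEI1 value had been -0.01. Between the deletion strains, cpt1Δ ept1Δ over ect1Δ pct1Δ, they became 0.02 for LCB1, -0.01 for TSC3, 0.21 for LAG1, 0.12 for KEI1, -0.28 for SUR1, -0.01 for CSG2, -0.01 for LCB3, 0.03 for LCB5, 0.15 for ORM1 and -0.09 for PKH2. KEI1, CSG2 and PKH2 changed sign there. For the members with small p it was 0.35 for YPC1, 0.23 for YDC1, 0.16 for SLM2 and -0.21 for ISC1 in ect1Δ pct1Δ over WT, and 0.19 for LAG1 in cpt1Δ ept1Δ over WT.

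**Figure D5:**
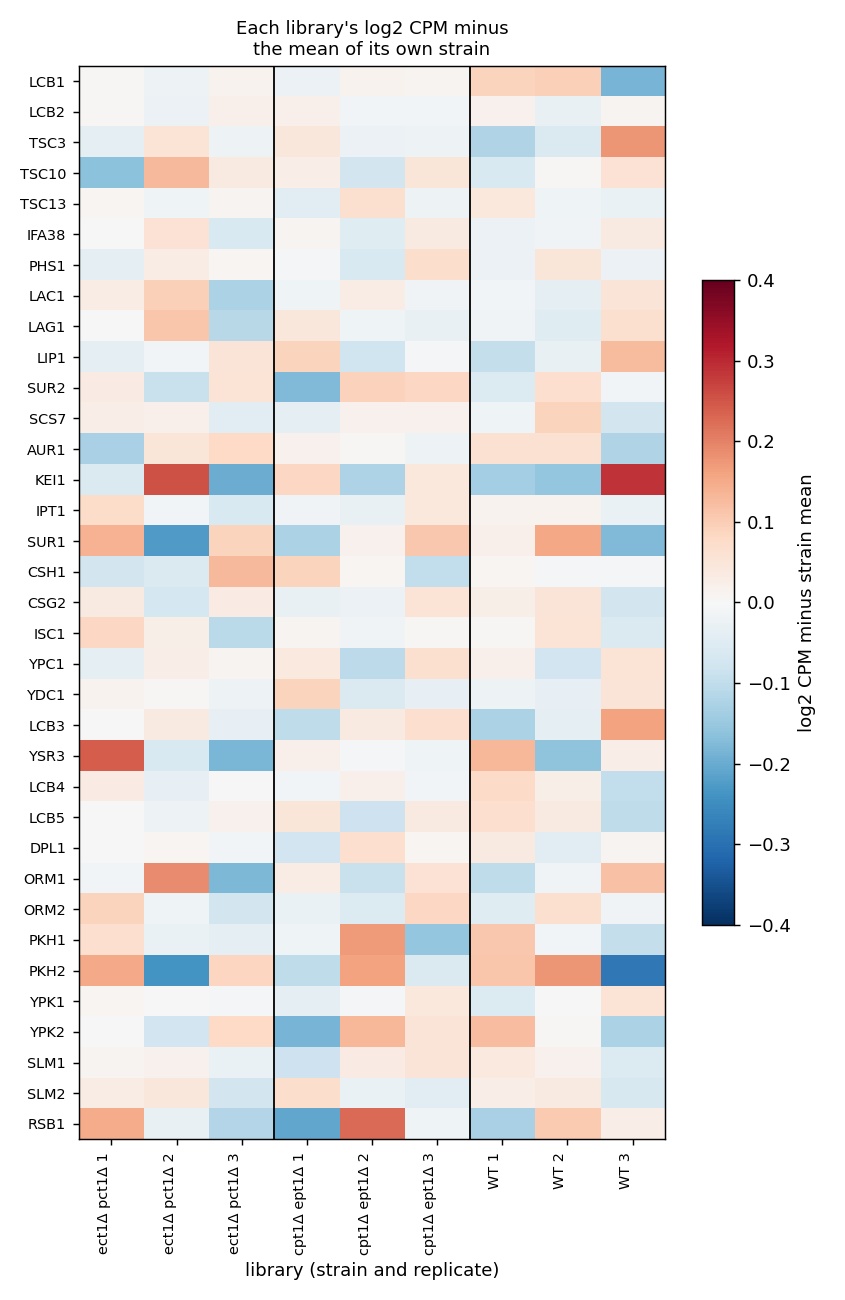
Difference of each member's log2 CPM from the mean of its own strain in each of the 9 libraries, with members in rows, red above and blue below the mean. Columns for ect1Δ pct1Δ replicate 2 and WT replicate 3 share the direction of KEI1 (up) and of SUR1 and PKH2 (down).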

How the data were processed

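RNA of 9 libraries was examined. For each gene and library the authors deposited a whole-number count and an FPKM, and the FPKM values equalled the counts scaled by gene length and library total within rounding. The submitters' processing notes name build R64, the tools HTSeq 0.6.1 and HISAT2 2.2.1, and no roles; use of strand in counting is not given in the sources. Another 6 columns, whose names match no sample, were not used. The design text speaks of knockouts of PAH1 and of DGK1, which are not the genotypes of the samples described here. In samples 2 and 3 of each deletion group the genotype label carries a running digit (pct2, pct3), read as the replicate number given in the title.

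Counts were fitted with edgeR 4.0.16 in R 4.3.3 (TMM scaling, filterByExpr, glmQLFit and glmQLFTest, 1 mean per group, all 9 libraries), and p-values were adjusted by Benjamini-Hochberg over 6083 genes; 1039 were removed by the filter. The script was tested on simulated data. The biological coefficient of variation was 6.24%. SEs are the log2 fold change over the root of the F statistic, and 95% intervals use a t quantile of 2.11. Counting error and the number of libraries limit precision. FPKM was used for levels, and log2 FPKM ratios of isozymes for two-sided exact permutation tests. Alternatives were RLE factors, no filter, DESeq2 1.42.0, a replicate block, 2 groups only and leaving out libraries. Members, gene lists and tests were chosen with earlier results of these data known. Per-library values are given for members called, the 3 members with the smallest p per comparison, isozyme pairs, and members described beyond that rule after their values were seen. No pair of libraries of a group agreed within counting noise. Sequences were cut from the RefSeq R64 genome, in which all 35 members had the deposited coordinates.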

Additional observations from a re-analysis of the deposited data

How the results depend on the processing

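In ect1Δ pct1Δ over WT the 1 member called, YPC1, became 0 under RLE factors, the replicate block, 2 groups only, DESeq2 and without both libraries that stand apart (an alternative chosen after seeing the data). Leaving out each library in turn gave 0 to 1 members and 17 to 40 genes called, against 28 with all, and the 17 was without WT replicate 1. The edgeR adjusted p of YPC1 was 0.0549 with RLE factors, 0.0879 with the replicate block and 0.103 with 2 groups, and the adjusted p of DESeq2's Wald test was 0.0562. In cpt1Δ ept1Δ over WT, 8 genes became 17 in DESeq2, 16 without both libraries and 4 to 9 leaving out each in turn, with 4 without cpt1Δ ept1Δ replicate 2. In cpt1Δ ept1Δ over ect1Δ pct1Δ, 12 genes became 23 without both libraries. The cause was not tested. Members called stayed at 0 in these 2 comparisons under every alternative run. The median over members was 0.0027 to 0.0247 in ect1Δ pct1Δ over WT, -0.0173 to 0.0317 in cpt1Δ ept1Δ over WT and -0.0055 to 0.0253 in cpt1Δ ept1Δ over ect1Δ pct1Δ when each library was left out; without both libraries it was -0.0018, -0.0078 and 0.0080, against 0.0156, 0.0059 and 0.0206 with all. Of 27 uncalled member values of at least 0.1 in size, 15 moved by over 1.5 times when 1 library was left out, and 0 of the 27 changed sign. Of 1575 member values over 15 settings, 1449 kept their sign and call, 13 lost a call (all YPC1) and 113 changed sign, each in a member and comparison with no call and a main log2 fold change of at most 0.09 in size.

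Deviations from the group means had correlations of r = -0.269 to 0.264 between same-numbered libraries of different groups. Between libraries with different numbers they were -0.306 to 0.365. The 1st range lies within the 2nd, so these values cannot decide whether replicate numbers pair the samples. A replicate block gave 23, 7 and 11 called genes in the 3 comparisons, against 28, 8 and 12. Depth limits the lowest members, with 87 counts at the least.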
